A study of Mus musculus with 12 samples.

Results

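The adenylyl cyclase family comprises the 9 membrane-bound enzymes Adcy1 to Adcy9, and all 9 were found by gene symbol among the 55421 gene IDs counted in mouse pituitary. All 9 also passed the filter on low counts, so each was tested. The pituitaries came from C57BL/6 mice whose genotype is labelled Cga-creAAVGpr101fl/fl or Cga-ctrlAAVGpr101fl/fl, so every mouse carried a floxed Gpr101, the gene of a G protein-coupled receptor. The name Cga in both virus labels is that of the glycoprotein hormone alpha subunit gene, and the labels do not say in which cells the viruses were active. The 4 groups held 3 libraries each and are called cre_AA14, cre_vehicle, ctrl_AA14 and ctrl_vehicle, for cre virus or control virus and for 1 week of AA14, which the study describes as a ligand, or of vehicle. Pituitaries were dispersed to single cells and passed through flow cytometry before RNA isolation, and the libraries are bulk RNA sequencing. Ages and sexes are not given, and the labels do not say whether libraries came from separate mice, so p-values reflect library-to-library spread alone.

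Membrane adenylyl cyclases make cyclic AMP from ATP when a receptor coupled to the stimulatory G protein Gs is activated. Receptors coupled to Gi lower the activity of some isoforms. In the pituitary this signal carries the actions of growth hormone-releasing hormone and corticotropin-releasing hormone, and it is opposed by somatostatin and dopamine. The isoforms differ in what else controls them. Adcy1, Adcy3 and Adcy8 form the group stimulated by calcium and calmodulin. Adcy2, Adcy4 and Adcy7 respond to G protein beta-gamma subunits and to protein kinase C. Adcy5 and Adcy6 are inhibited by calcium and by Gi, and Adcy9 is a widely expressed isoform that responds poorly to forskolin.

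The libraries held 48693682 to 73388221 counts. Levels are given as CPM, which scales counts to the size of each library (with TMM factors), and comparisons between genes use CPM per kb of exon. The hormone genes that mark pituitary were abundant, with Gh at 90440 to 241900 CPM, Prl at 31140 to 91940 CPM and Pomc at 11580 to 40760 CPM. Gpr101 itself was at 0.901 to 4.29 CPM in the 6 cre libraries and at 1.22 to 16.1 CPM in the 6 control libraries, and these ranges overlapped. A split that the groups do not account for ran through the libraries. The nuclear noncoding RNA Malat1 was at 1105 to 1560 CPM in 5 libraries, which were all 3 of ctrl_AA14, cre_vehicle 1 and cre_AA14 2, and at 199 to 549 CPM in the other 7. Ghrhr, which encodes the growth hormone-releasing hormone receptor, was at 242 to 316 CPM in the Malat1-rich libraries and at 84.0 to 160 CPM in the others. Across 16394 genes, the deviation of a library from the mean ran against transcript GC content in the Malat1-rich libraries, with Spearman's rho of -0.413 to -0.208, and rho was 0.016 to 0.355 in the other 7. In control mice this library state and AA14 cannot be told apart, because all 3 ctrl_AA14 libraries and none of the ctrl_vehicle libraries are Malat1-rich.

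Adcy6, Adcy5 and Adcy2 carried the family's transcripts in every library. Per kb of exon, Adcy6 averaged 23.1 ± 2.56 CPM per kb, Adcy5 15.2 ± 4.96 CPM per kb and Adcy2 7.07 ± 1.65 CPM per kb (SD, n = 12). The remaining 6 members averaged between 0.225 and 1.86 CPM per kb. Adcy6 was above Adcy5 in 11 of 12 libraries, with ctrl_vehicle 3 the exception, and their ranges of 19.6 to 27.5 and 8.02 to 23.1 CPM per kb overlapped. Adcy5 was above Adcy2 in all 12 libraries. The only neighbours in this order whose ranges over libraries did not overlap were Adcy2, at 5.64 to 11.95 CPM per kb, and Adcy3, at 0.761 to 4.21 CPM per kb. Below them Adcy3, Adcy9, Adcy7, Adcy1, Adcy4 and Adcy8 followed in order of mean, each overlapping the next. Adcy10, the soluble bicarbonate-activated cyclase that is not a member of the membrane family, was at 0 to 0.163 CPM.

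As a share of the family's summed CPM per kb, Adcy5 and Adcy6 together made up 64.5% to 78.5% in each library. Adcy6 took 45.7 ± 5.19% in cre_AA14, 45.5 ± 9.51% in cre_vehicle, 53.5 ± 6.31% in ctrl_AA14 and 38.7 ± 8.06% in ctrl_vehicle (SD, n = 3 each). For Adcy5 the shares were 29.9 ± 4.86% in cre_AA14, 29.9 ± 6.52% in cre_vehicle, 21.7 ± 3.43% in ctrl_AA14 and 34.0 ± 1.39% in ctrl_vehicle. Control mice had a larger Adcy6 share and a smaller Adcy5 share with AA14, with ranges that did not overlap for either isoform, and no such gap appeared in cre mice. How often the ranges of other genes separate between the control groups was not counted, so these gaps have no background. All 3 ctrl_AA14 libraries are Malat1-rich, so AA14 and library state cannot be told apart here. The ratio of Adcy5 to Adcy6 per kb was 0.414 ± 0.106 in ctrl_AA14 and 0.912 ± 0.237 in ctrl_vehicle, and 0.668 ± 0.172 in cre_AA14 and 0.692 ± 0.259 in cre_vehicle. This ratio does not depend on library scaling. In cre mice it was 0.477 in the Malat1-rich cre_AA14 2 and 0.4 in the Malat1-rich cre_vehicle 1, against 0.712 to 0.890 in the other 4 cre libraries.

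**Figure D1:**
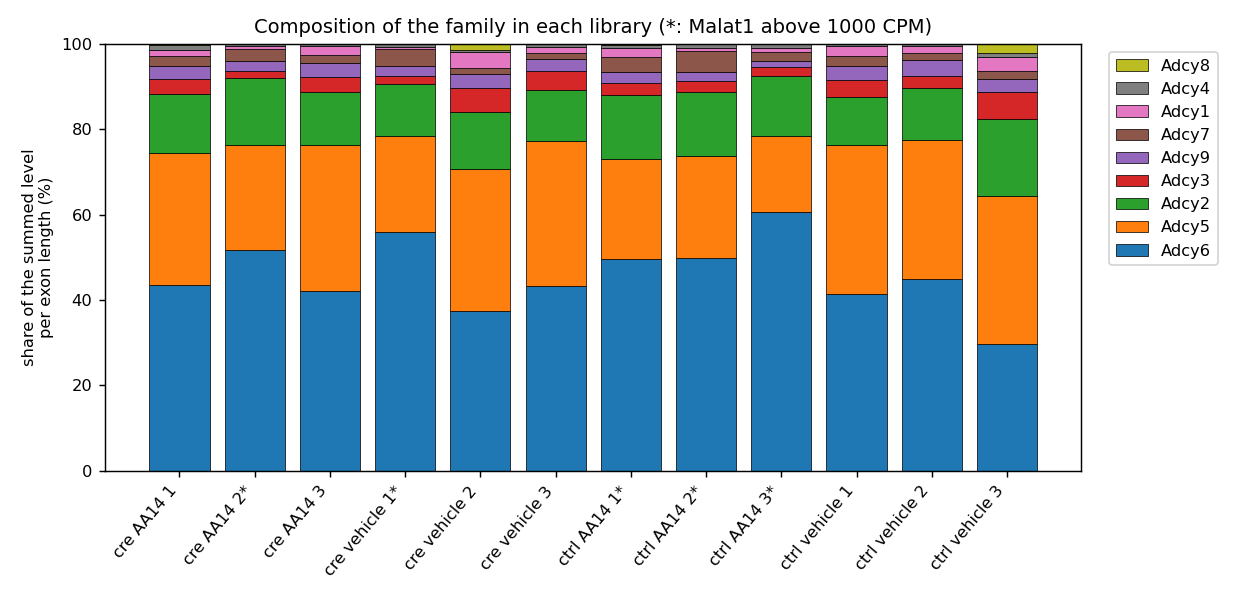
Share of the family's summed level (CPM per kb of exon, in %) held by each isoform, 1 bar per library, with an asterisk where Malat1 is above 1000 CPM. Adcy6 and Adcy5 together hold 64.5% to 78.5% of every bar, and Adcy6 takes the most in ctrl_AA14 3 (60.7%) and the least in ctrl_vehicle 3 (29.6%).

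The summed level of all 9 members was 49.5 ± 4.995 CPM per kb in cre_AA14 and 54.3 ± 6.06 CPM per kb in cre_vehicle. In control mice it was 43.5 ± 1.503 CPM per kb in ctrl_AA14 and 58.0 ± 8.42 CPM per kb in ctrl_vehicle. The control sums ran from 42.3 to 45.2 CPM per kb with AA14 and from 49.5 to 66.3 CPM per kb with vehicle, without overlap. No background was counted for this gap either. The Malat1-rich cre libraries were at 44.3 CPM per kb in cre_AA14 2 and 47.3 CPM per kb in cre_vehicle 1, so that the 5 Malat1-rich libraries lay below the other 7, which ran from 49.5 to 66.3 CPM per kb.

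**Figure D2:**
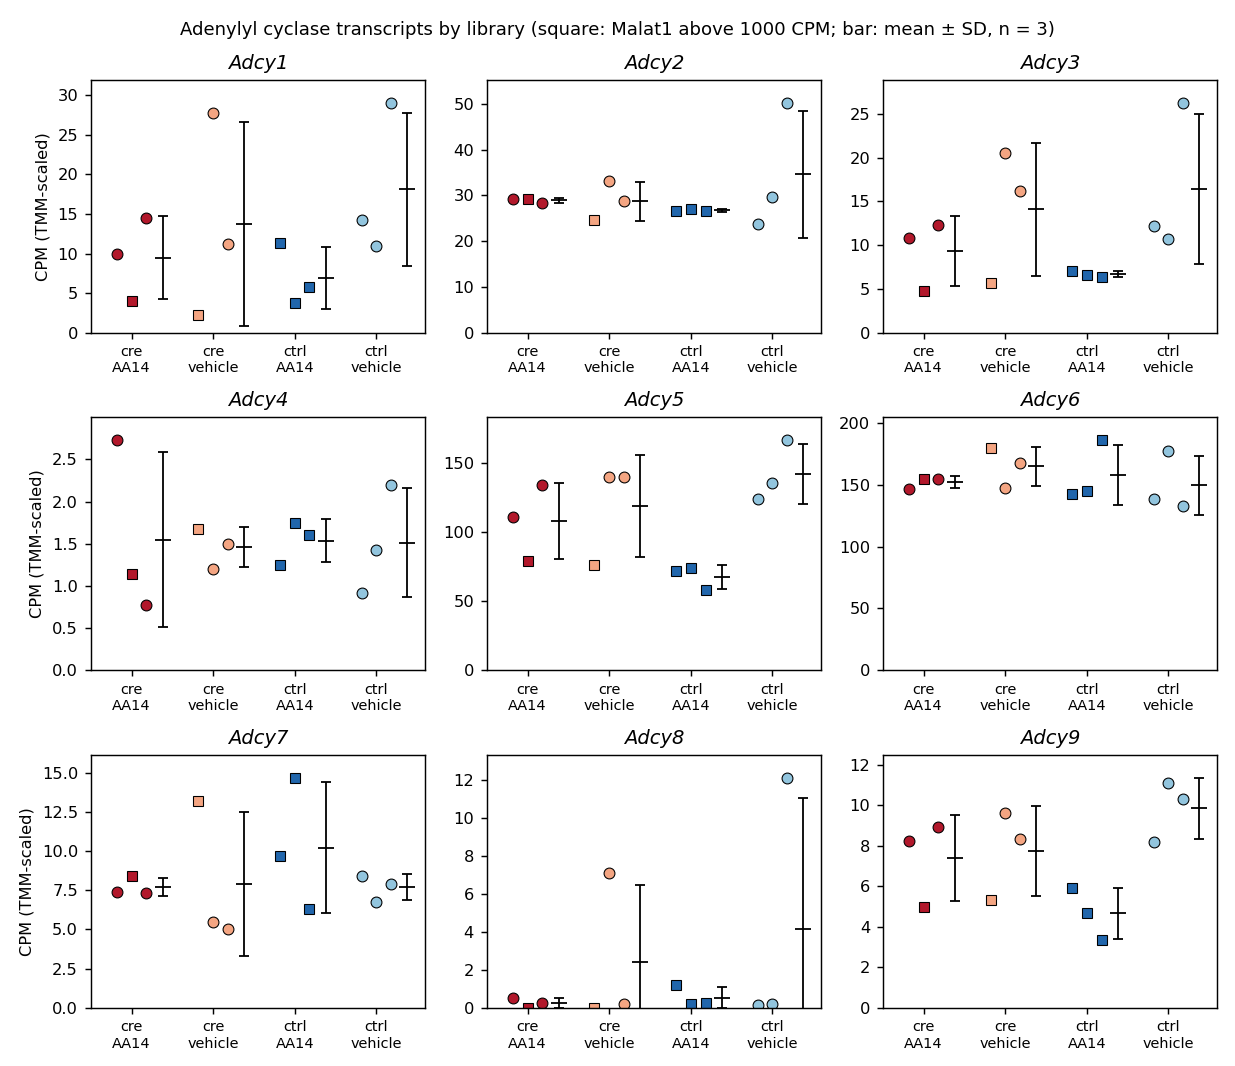
CPM of each isoform by library, from left to right cre_AA14, cre_vehicle, ctrl_AA14 and ctrl_vehicle, with the mean ± SD of 3 libraries beside each group (bars for Adcy8 are cut at 0). Squares mark libraries with Malat1 above 1000 CPM; for Adcy3, Adcy5 and Adcy9 every square lies below every circle, and for Adcy6 they mix.

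Adcy6 (ENSMUSG00000022994, GRCm38 chromosome 15, 98589973 to 98610076, minus strand), a calcium- and Gi-inhibited isoform, was the steadiest of the abundant members. Its level was 147, 155 and 155 CPM in cre_AA14 and 179.7, 148 and 168 CPM in cre_vehicle. In control mice it was 143, 146 and 186 CPM in ctrl_AA14 and 139, 177 and 133 CPM in ctrl_vehicle. All 4 groups overlapped, and the Malat1-rich libraries at 143 to 186 CPM overlapped the others at 133 to 177 CPM. With AA14 in control mice the log2 fold change was 0.08 (SE 0.15, edgeR adjusted p = 0.788). That value turned to -0.05 without ctrl_AA14 3. An antisense gene, Gm29331, overlaps 8.92% of its exon sequence and held 0 counts.

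Adcy5 (ENSMUSG00000022840, GRCm38 chromosome 16, 35154877 to 35305738, plus strand) is the closest relative of Adcy6 in regulation, and it had the smallest p of the family for AA14 in control mice. There its level was 71.3, 73.8 and 57.6 CPM in ctrl_AA14, against 124, 135 and 166 CPM in ctrl_vehicle. Every AA14 library lay below every vehicle library. How many of all genes had separate ranges in this comparison was not counted, so such a separation has no background for any member. At an unadjusted edgeR p under 0.05, 15.8% of all genes were lower with AA14 in control mice. In bulk RNA, fewer cells of a type and less RNA per cell cannot be told apart. The log2 fold change was -1.07 (SE 0.26), which ranked 124 by p among all genes and did not pass after adjustment (edgeR adjusted p = 0.141). DESeq2 put the same change at -1.05 with an adjusted p of 0.0129, limma-voom with quality weights at -0.94 with an adjusted p of 0.0171, and edgeR on the 6 control libraries alone at -1.06 with an adjusted p of 0.0193. Over all its alternatives the adjusted p ran from 0.0129 to 1.00.

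Adcy9 (ENSMUSG00000005580, GRCm38 chromosome 16, 4287529 to 4420498, minus strand) was less abundant than Adcy5 and was likewise lower in every AA14 library of the control mice. It was at 5.90, 4.69 and 3.37 CPM in ctrl_AA14, against 8.18, 11.1 and 10.3 CPM in ctrl_vehicle, again without overlap. Its log2 fold change was -1.08 (SE 0.31, edgeR adjusted p = 0.141). DESeq2 gave -1.06 with an adjusted p of 0.0234, and limma-voom gave -0.998 with an adjusted p of 0.0206. The adjusted p over the alternatives for Adcy9 ran from 0.0206 to 1.00.

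Adcy3 (ENSMUSG00000020654, GRCm38 chromosome 12, 4133103 to 4213525, plus strand), best known as the cyclase of olfactory cilia, was the remaining member with an unadjusted p under 0.05. Its level was 7.07, 6.64 and 6.36 CPM in ctrl_AA14, against 12.2, 10.7 and 26.3 CPM in ctrl_vehicle. The groups did not overlap, and ctrl_vehicle 3 was far above the other vehicle libraries. The log2 fold change was -1.29 (SE 0.50, edgeR adjusted p = 0.162). It was -0.78 without ctrl_vehicle 3 (edgeR adjusted p = 0.463), and -0.79 without the 3 libraries richest in oligodendrocyte markers, where its unadjusted p was no longer under 0.05. Counts of Adcy3 are uncertain, because 22.1% of its exon sequence overlaps Cenpo on the opposite strand. Cenpo held 523 to 767 counts per library and Adcy3 262 to 1915, and the library kit does not mark strand.

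For Adcy5, Adcy9 and Adcy3 the 5 Malat1-rich libraries and the other 7 had separate ranges. In 3 of the 5, those of ctrl_AA14, state and AA14 cannot be told apart, and the 2 Malat1-rich cre libraries are 1 of each treatment. Adcy5 was at 57.6 to 78.5 CPM in the 5 Malat1-rich libraries and at 111 to 166 CPM in the other 7. Adcy9 was at 3.37 to 5.90 CPM in the first set and 8.18 to 11.1 CPM in the other, and Adcy3 at 4.75 to 7.07 CPM and 10.7 to 26.3 CPM. Of all 22630 genes tested, 13.1% had all 5 Malat1-rich libraries below all 7 others, and 9.23% had them all above. The other 6 members had ranges that overlapped between the 2 states. With library state added to the model as a term, a setting chosen after the data were seen, the log2 fold change for AA14 in control mice was -0.31 (SE 0.21) for Adcy5, -0.31 (SE 0.32) for Adcy9 and 0.19 (SE 0.44) for Adcy3, all with edgeR adjusted p of 1.00. In that fit the state is estimated from the cre libraries.

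**Figure D3:**
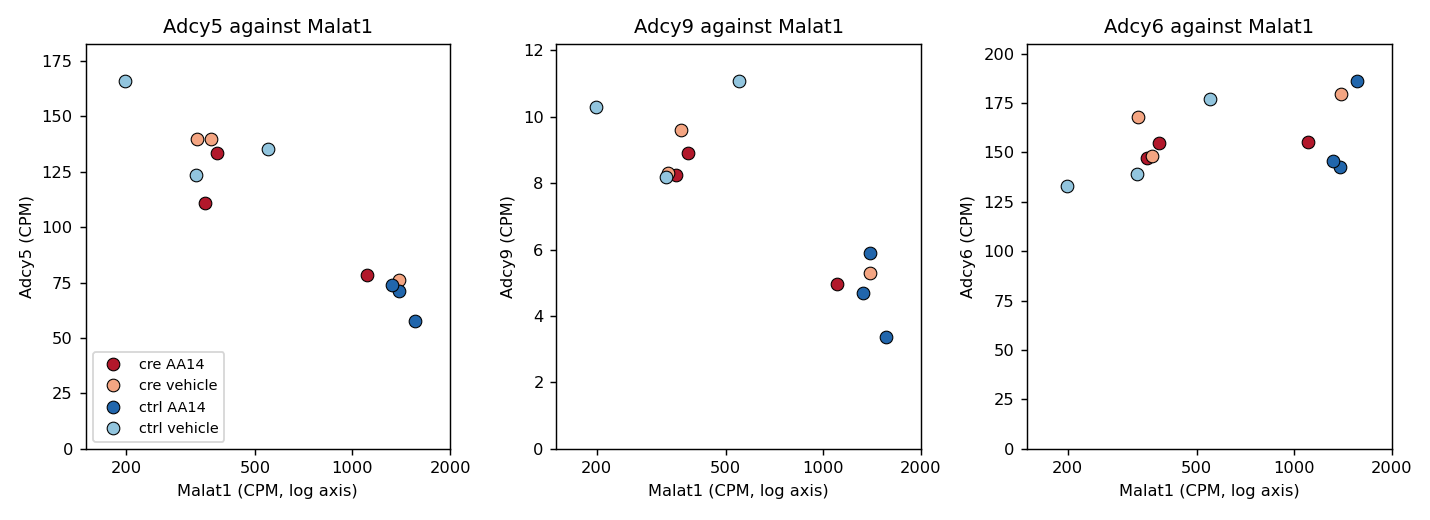
Level of Adcy5, Adcy9 and Adcy6 (CPM) against Malat1 (CPM, log axis), 1 point per library, coloured by group. Adcy5 and Adcy9 fall into separate ranges either side of 1000 CPM of Malat1 (57.6 to 78.5 above it and 111 to 166 CPM below it for Adcy5), whereas Adcy6 does not.

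The transcripts of these 3 members are GC-rich, which stands beside the GC trend of the libraries. Their longest transcripts hold 59.5% GC for Adcy5, 57.0% for Adcy9 and 56.7% for Adcy3, the highest values of the family, against a median of 49.4% over all genes. Adcy5 is above 94.6% of genes in this measure. Adcy6 follows at 55.4% GC, above 81.1% of genes, and the other 5 hold 50.8% to 54.0%. The part of GC content in the differences was not tested.

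The promoters of Adcy5 and Adcy9 are shown because the same libraries were low for both members, with that of Adcy2, whose levels overlapped between the library states, for comparison. RefSeq entries (GRCm38.p6, 250 bases before to 50 after the start) were matched for 7 of the 9 members. Adcy6 and Adcy8 are named only. Capitals mark GC boxes (GGGCGG, or CCGCCC for the other strand) and the half-site of the cyclic AMP response element (TGACG, or CGTCA). The Adcy5 window is chr16:35154614-35154913 on the plus strand, that of Adcy9 is chr16:4420449-4420748 on the minus strand, and that of Adcy2 is chr13:68999492-68999791 on the minus strand.
Adcy5: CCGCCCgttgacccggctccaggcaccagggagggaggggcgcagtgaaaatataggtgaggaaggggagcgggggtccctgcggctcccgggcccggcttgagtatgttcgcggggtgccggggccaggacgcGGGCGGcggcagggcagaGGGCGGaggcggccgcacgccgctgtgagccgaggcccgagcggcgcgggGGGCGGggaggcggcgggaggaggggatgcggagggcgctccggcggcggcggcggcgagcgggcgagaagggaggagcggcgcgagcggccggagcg
Adcy9: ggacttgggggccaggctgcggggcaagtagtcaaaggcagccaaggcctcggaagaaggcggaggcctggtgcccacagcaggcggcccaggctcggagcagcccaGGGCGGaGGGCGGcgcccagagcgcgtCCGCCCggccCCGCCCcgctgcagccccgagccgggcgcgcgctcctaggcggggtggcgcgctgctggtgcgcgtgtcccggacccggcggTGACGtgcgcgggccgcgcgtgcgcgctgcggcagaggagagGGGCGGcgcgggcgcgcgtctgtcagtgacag
Adcy2: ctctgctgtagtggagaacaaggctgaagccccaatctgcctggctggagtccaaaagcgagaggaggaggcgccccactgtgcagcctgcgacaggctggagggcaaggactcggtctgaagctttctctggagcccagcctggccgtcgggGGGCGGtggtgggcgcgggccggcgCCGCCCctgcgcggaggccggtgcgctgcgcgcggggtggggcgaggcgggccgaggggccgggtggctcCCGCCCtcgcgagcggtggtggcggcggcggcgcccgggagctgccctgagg
Adcy5 has 44 CpG dinucleotides in its window, more than 97.8% of the 32851 promoters, and 4 GC boxes. Adcy9 has 42 CpG dinucleotides, more than 97.0% of promoters, with 5 GC boxes and 1 half-site. Adcy2 has 32 CpG dinucleotides, more than 90.5%, and 3 GC boxes. Adcy3, low in the same libraries as Adcy5 and Adcy9 but not printed, has 33 CpG dinucleotides and 1 GC box in 1 window. Its other window has 7 CpG dinucleotides and 0 GC boxes. Of the unprinted members whose levels overlapped between the states, Adcy1 has 37 CpG dinucleotides and 5 GC boxes. Adcy4 has 16 and 0, and the windows of Adcy7 have 4 to 6 and 0 to 1. A GC box was present in 35.7% of all promoters and a half-site in 20.8%. The full response element TGACGTCA, which contains both half-sites and occurs in 1.79% of promoters, was not found in any of the 10 windows of members. These matches describe letters in the windows and do not show binding.

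Among the calcium/calmodulin-stimulated members, Adcy1 (ENSMUSG00000020431, GRCm38 chromosome 11, 7063489 to 7178506, plus strand), a neuronal isoform, varied widely within groups. Its level was 9.94, 4.02 and 14.5 CPM in cre_AA14 and 2.24, 27.8 and 11.2 CPM in cre_vehicle. In control mice it was 11.3, 3.71 and 5.73 CPM in ctrl_AA14 and 14.2, 11 and 29.1 CPM in ctrl_vehicle, which overlapped. The log2 fold change with AA14 in control mice was -1.39 (SE 0.77, edgeR adjusted p = 0.289), and -0.87 without ctrl_vehicle 3.

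Adcy8 (ENSMUSG00000022376, GRCm38 chromosome 15, 64697084 to 64922296, minus strand), another neuronal isoform, was near 0 except in a few libraries. It had 0.505, 0 and 0.225 CPM in cre_AA14 and 0, 7.09 and 0.185 CPM in cre_vehicle. In control mice it had 1.20, 0.172 and 0.239 CPM in ctrl_AA14 and 0.118, 0.171 and 12.1 CPM in ctrl_vehicle. The libraries with 0 counts allow up to 0.0544 CPM (cre_AA14 2) and 0.0607 CPM (cre_vehicle 1), taking 3 counts as the limit for counting error only. The log2 fold change with AA14 in control mice was -2.94 (SE 2.05, edgeR adjusted p = 0.398), and it was 1.88 without ctrl_vehicle 3.

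The libraries high in Adcy8 were those rich in markers of oligodendrocytes, the myelin-forming cells of nervous tissue. The summed level of 6 such markers reached 3233 CPM in cre_vehicle 2 and 441 CPM in cre_AA14 1, 721 CPM in ctrl_AA14 1 and 2287 CPM in ctrl_vehicle 3, against 54.9 to 127 CPM in the other 8 libraries. Adcy8 had its 4 highest levels in the same 4 libraries. A list of 6 neuronal markers summed to 1065 CPM in cre_vehicle 2, 723 CPM in ctrl_AA14 1 and 1100 CPM in ctrl_vehicle 3, and to 509 to 591 CPM elsewhere. By group the oligodendrocyte sums spanned 60.2 to 441 CPM in cre_AA14, 60.4 to 3233 CPM in cre_vehicle, 54.9 to 721 CPM in ctrl_AA14 and 90.0 to 2287 CPM in ctrl_vehicle, with all 6 markers detected in every group. Adcy1 and Adcy3 were also highest in cre_vehicle 2 and ctrl_vehicle 3, at 27.8 and 29.1 CPM for Adcy1 and 20.5 and 26.3 CPM for Adcy3. Without the 3 libraries richest in these markers, the log2 fold change with AA14 in control mice was 0.53 for Adcy8 and 0.03 for Adcy2, where the values over all libraries are negative. In the same setting Adcy1 was at -1.39, as over all libraries, and Adcy3 at -0.79 (SE 0.53, edgeR adjusted p = 0.544). The part of these cells in the differences was otherwise not tested.

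Of the members that respond to beta-gamma subunits, Adcy2 (ENSMUSG00000021536, GRCm38 chromosome 13, 68620043 to 68999541, minus strand) was the abundant one. Its level was 29.2, 29.3 and 28.4 CPM in cre_AA14 and 24.5, 33.1 and 28.7 CPM in cre_vehicle. In control mice it was 26.7, 27.1 and 26.5 CPM in ctrl_AA14 and 23.8, 29.8 and 50.3 CPM in ctrl_vehicle. Within each virus, AA14 and vehicle overlapped, and ctrl_vehicle 3 stood above every other library. The cre_AA14 libraries lay above the ctrl_AA14 libraries without overlap, a log2 fold change of 0.11 (SE 0.23, edgeR adjusted p = 0.904). How many of all genes had separate ranges between these groups was not counted, so this separation has no background. The log2 fold change with AA14 in control mice was -0.37 (SE 0.23, edgeR adjusted p = 0.350) and 0.0004 without ctrl_vehicle 3. An antisense gene, Gm35161, overlaps 4.49% of its exon sequence and held 11 to 52 counts, against 1213 to 3665 for Adcy2.

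Adcy7 (ENSMUSG00000031659, GRCm38 chromosome 8, 88272403 to 88329962, plus strand), known for its place in immune and haematopoietic cells, was at 7.40, 8.39 and 7.32 CPM in cre_AA14 and 13.2, 5.48 and 4.999 CPM in cre_vehicle. In control mice it was 9.67, 14.7 and 6.33 CPM in ctrl_AA14 and 8.43, 6.76 and 7.89 CPM in ctrl_vehicle. The groups overlapped, and the highest values lay in ctrl_AA14 2, cre_vehicle 1 and ctrl_AA14 1, all Malat1-rich. Lymphocyte markers summed to 19.8, 15.35 and 16.7 CPM in those libraries, in that order, and to 2.67 to 9.75 CPM elsewhere. Macrophage markers summed to 133, 145 and 135 CPM there, within the 103 to 200 CPM of all libraries. The part of these cells in the Adcy7 levels was not tested. The log2 fold change with AA14 in control mice was 0.41 (SE 0.38, edgeR adjusted p = 0.536).

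Adcy4 (ENSMUSG00000022220, GRCm38 chromosome 14, 55769057 to 55784095, minus strand), an isoform of blood vessel endothelium, had 0.770 to 2.73 CPM in cre_AA14 and 1.20 to 1.68 CPM in cre_vehicle. It had 1.25 to 1.75 CPM in ctrl_AA14 and 0.915 to 2.20 CPM in ctrl_vehicle. Each library held 41 to 178 counts of Adcy4, the ranges overlapped, and the log2 fold change with AA14 in control mice was 0.02 (SE 0.47, edgeR adjusted p = 0.984). It turned to -0.24 without ctrl_vehicle 1. Markers of endothelium summed to 156 to 183 CPM in cre_AA14, 152 to 208 CPM in cre_vehicle, 128 to 169 CPM in ctrl_AA14 and 156 to 179 CPM in ctrl_vehicle, with all 6 detected in every group.

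Taking the 9 members as a family, none passed the adjusted threshold of 0.05 in edgeR for AA14 in control mice, where 0.00442% of 22630 genes did. DESeq2 called Adcy5 and Adcy9 among 10.2% of genes, and limma-voom called the same 2 among 15.1%. At an unadjusted p under 0.05, edgeR had 3 members, all lower with AA14, beside 23.8% of all genes (15.8% lower and 8.03% higher). The median log2 fold change was -1.07 over the 9 members and -0.02 over all genes, with 3 members positive and 6 negative.

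In cre mice the AA14 comparison sets the ligand against vehicle where the virus carried cre, the recombinase that cuts floxed sequence. Adcy5 was at 111, 78.5 and 133 CPM in cre_AA14, against 76.1, 139.6 and 139.8 CPM in cre_vehicle. Each group had a low library, and both of these low libraries were Malat1-rich. The log2 fold changes were -0.14 (SE 0.25) for Adcy5, -0.12 (SE 0.15) for Adcy6, -0.07 (SE 0.31) for Adcy9 and -0.60 (SE 0.49) for Adcy3, each with an edgeR adjusted p of 1.00. Adcy9 had 8.24, 4.95 and 8.92 CPM in cre_AA14, against 5.30, 9.61 and 8.31 CPM in cre_vehicle. Adcy3 had 10.9, 4.75 and 12.3 CPM in cre_AA14, against 5.68, 20.5 and 16.2 CPM in cre_vehicle. Both genes had their lowest value of each group in the Malat1-rich library. Of the 9 members 2 had positive and 7 negative values. None passed the adjusted threshold by edgeR (0% of genes), DESeq2 or limma-voom, though DESeq2 gave no p for Adcy8. No member had an unadjusted p under 0.05 in edgeR, where 2.29% of genes did. With 1 library left out in turn, Adcy5 ran from -0.39 to 0.04 and Adcy9 from -0.29 to 0.14. The upper ends were reached without the Malat1-rich cre_AA14 2. Without the Malat1-rich cre_vehicle 1, 1 member had an unadjusted p under 0.05 in edgeR, beside 6.19% of genes.

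**Figure D4:**
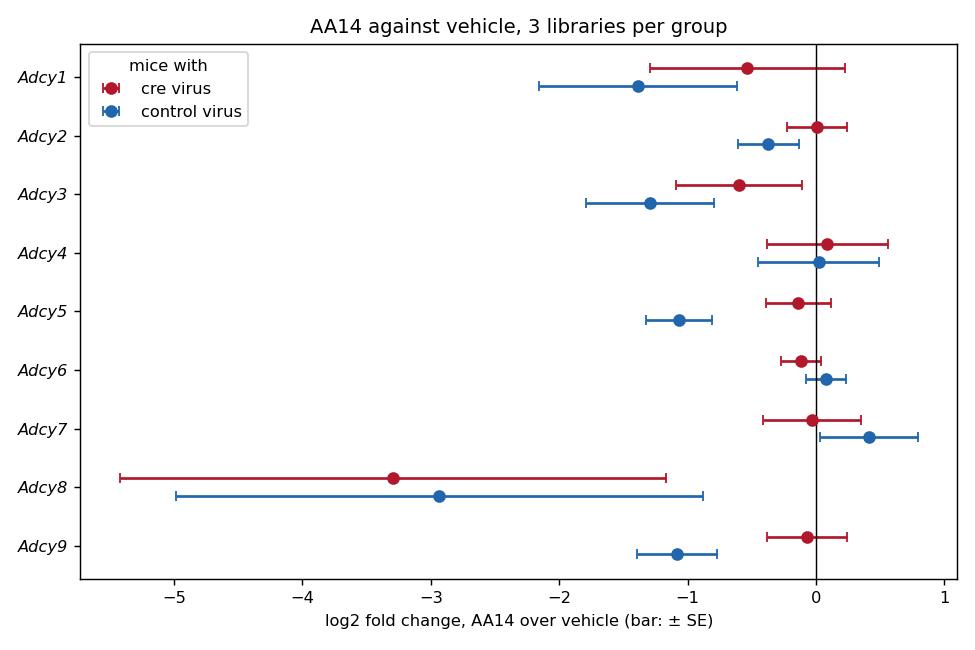
Log2 fold change of each isoform with AA14 over vehicle (bar: ± SE), in mice with the cre virus (red, upper) and the control virus (blue, lower), 3 libraries per group. Adcy5 lies at -0.14 with cre virus and -1.07 with control virus, Adcy9 at -0.07 and -1.08, and Adcy6 near 0 in both.

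The difference of these AA14 effects, cre minus control, was 0.93 (SE 0.36) for Adcy5 and 1.01 (SE 0.44) for Adcy9, each with an edgeR adjusted p of 0.631. It was 0.69 (SE 0.69) for Adcy3 and -0.19 (SE 0.22) for Adcy6. Adcy5 and Adcy9 were the 2 members with an unadjusted p under 0.05, beside 7.03% of all genes, and none passed the adjusted threshold, which 0.00442% of genes did. Without ctrl_vehicle 3, ctrl_AA14 3 or cre_AA14 3 no member had an unadjusted p under 0.05, beside 6.39%, 3.68% and 4.43% of genes.

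Under vehicle, the cre virus was set against the control virus without the ligand, and no group went without a virus. The log2 fold changes were -0.26 (SE 0.25) for Adcy5, 0.14 (SE 0.15) for Adcy6, -0.35 (SE 0.31) for Adcy9 and -0.22 (SE 0.49) for Adcy3, each with an edgeR adjusted p of 1.00. No member had an unadjusted p under 0.05, beside 2.00% of genes, and 0.00442% of genes passed the adjusted threshold. Adcy5 averaged 118 ± 36.7 CPM in cre_vehicle and 142 ± 21.9 CPM in ctrl_vehicle (SD, n = 3 each), with cre_vehicle 1 below the rest. Adcy3 turned to 0.30 without ctrl_vehicle 3.

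Under AA14, Adcy5 averaged 108 ± 27.6 CPM in cre_AA14 and 67.6 ± 8.74 CPM in ctrl_AA14, and the groups did not overlap (78.5 to 133 and 57.6 to 73.8 CPM). The share of all genes with separate ranges between these groups was not counted. The log2 fold change of Adcy5 was 0.67 (SE 0.26, edgeR adjusted p = 0.582), and it was the only member with an unadjusted p under 0.05, beside 8.52% of genes. Adcy9 averaged 7.37 ± 2.12 CPM in cre_AA14 and 4.65 ± 1.27 CPM in ctrl_AA14, which overlapped, with a log2 fold change of 0.66 (SE 0.31, edgeR adjusted p = 0.591). Adcy3 was at 0.48 (SE 0.49) and Adcy6 at -0.05 (SE 0.15). No gene passed the adjusted threshold in edgeR (0%), while 1927 genes had an unadjusted p under 0.05 and DESeq2 called 34. The comparison sets 1 Malat1-rich library of 3 against 3 of 3, and it shares the ctrl_AA14 libraries with the AA14 comparison in control mice.

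The genes around the cyclases in the pathway are given for AA14 in control mice, where 11520 of all 22630 genes had negative log2 fold changes and 15.8% were lower at an unadjusted p under 0.05. Of the G protein subunits and their chaperone, 10 of 12 were negative with a median log2 fold change of -0.74, and 6 of them had an unadjusted p under 0.05, all lower. Gnai2, an inhibitory alpha subunit that lowers cyclase activity, averaged 73.5 ± 19.8 CPM in ctrl_AA14 and 274 ± 62.7 CPM in ctrl_vehicle, a log2 fold change of -1.90 (SE 0.51, edgeR adjusted p = 0.141). Gnaz, a pertussis toxin-resistant member of the Gi class, averaged 14.8 ± 3.62 CPM in ctrl_AA14 and 29.3 ± 5.99 CPM in ctrl_vehicle, a log2 fold change of -0.98 (SE 0.27, edgeR adjusted p = 0.141). In cre mice 6 of these 12 genes were positive and 6 negative.

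Of 15 receptors that raise or lower cyclic AMP, 11 were negative, with a median of -0.51. Glp1r, the receptor for glucagon-like peptide, averaged 2.76 ± 0.330 CPM in ctrl_AA14 and 7.86 ± 2.03 CPM in ctrl_vehicle, a log2 fold change of -1.51 (edgeR adjusted p = 0.141). Adrb1, a beta adrenergic receptor, averaged 0.802 ± 0.376 CPM in ctrl_AA14 and 2.90 ± 1.39 CPM in ctrl_vehicle, a log2 fold change of -1.85 (edgeR adjusted p = 0.141). Sstr3, a somatostatin receptor, was the third with an unadjusted p under 0.05 and a lower value, at -0.46. Ghrhr was the only receptor with one and a higher value, at 1.20.

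Downstream, 11 of 12 genes of protein kinase A, its inhibitors, the Epac exchange factors and Creb1 were negative, with a median of -0.52. Prkar2a, a regulatory subunit of protein kinase A, averaged 27.1 ± 1.81 CPM in ctrl_AA14 and 51.8 ± 14.5 CPM in ctrl_vehicle, a log2 fold change of -0.93 (edgeR adjusted p = 0.141). Prkaca, its main catalytic subunit, averaged 50.6 ± 14.9 CPM in ctrl_AA14 and 148 ± 32.4 CPM in ctrl_vehicle, a log2 fold change of -1.55 (edgeR adjusted p = 0.141). Rapgef3, an Epac gene, was the positive one, at 0.45 and with an unadjusted p under 0.05. Rapgef4, another Epac gene, went the other way, at -0.77. Prkar1b, Pkia and Rapgef4 were lower at an unadjusted p under 0.05 as well.

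Phosphodiesterases, which break cyclic nucleotides down, were negative for 12 of 15 with a median of -0.41, and 5 had an unadjusted p under 0.05. Pde4d, a cyclic AMP-specific enzyme, averaged 6.30 ± 1.29 CPM in ctrl_AA14 and 13.3 ± 5.42 CPM in ctrl_vehicle, a log2 fold change of -1.08 (edgeR adjusted p = 0.172). Pde2a, which cyclic GMP stimulates, averaged 3.62 ± 4.41 CPM in ctrl_AA14 and 22.2 ± 18.8 CPM in ctrl_vehicle, a log2 fold change of -2.62 (SE 1.05, edgeR adjusted p = 0.174). Of 14 calmodulin, protein kinase C, anchoring and calcium entry genes, 12 were negative with a median of -0.31, and 4 had an unadjusted p under 0.05. Prkce, a protein kinase C, averaged 67.1 ± 13.2 CPM in ctrl_AA14 and 121 ± 22.1 CPM in ctrl_vehicle, a log2 fold change of -0.85 (edgeR adjusted p = 0.141). Calm3, a calmodulin gene, averaged 287 ± 75.1 CPM in ctrl_AA14 and 625 ± 255 CPM in ctrl_vehicle, a log2 fold change of -1.12 (edgeR adjusted p = 0.147).

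None of the 68 genes on these 5 lists passed the adjusted threshold in any comparison by edgeR. For AA14 in control mice 25 had an unadjusted p under 0.05, 2 higher and 23 lower, beside 23.8% of all genes. These genes were picked by a comparison in which AA14 and library state coincide, so their ranges by library state are given as a description only. Gnai2 was at 50.8 to 100.4 CPM in the Malat1-rich libraries and at 218 to 342 CPM in the others, and Prkaca at 34.5 to 64.0 CPM and 111 to 184 CPM. In cre mice none of the 68 had an unadjusted p under 0.05, where 2.29% of all genes did. Sstr3, Rapgef3, Prkar1b, Pkia and Rapgef4 were named after their values were seen.

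The genes whose profiles over the 12 libraries were most like those of the 3 abundant members were sought among the 10246 genes that averaged 10 CPM or more. Likeness is the root mean square difference of centred log2(CPM + 0.5) profiles, and smaller is closer. For Adcy6 the nearest were Trrap, at 0.0788, C2cd5, at 0.0813, and Gzf1, at 0.0833, where the profile of Adcy6 itself deviated from flat by 0.15. For Adcy5 they were Pcyox1, at 0.0823, Peg13, at 0.0896, and Socs7, at 0.0936, where Adcy5 itself deviated by 0.480. Pcyox1 was at 48.3 to 58.0 CPM in the Malat1-rich libraries and 87.0 to 116 CPM in the others. It was picked for its likeness to Adcy5 over these same libraries, so sharing this separation follows from the choice. Of all 22630 genes tested, 13.1% had all 5 Malat1-rich libraries below all 7 others. For Adcy2 they were Plcd4, at 0.0906, Cyb5b, at 0.0921, and Prmt2, at 0.0997, where Adcy2 itself deviated by 0.262. Adcy5 and Adcy6 differed from each other by 0.552, more than Adcy5 did from Adcy3 at 0.346 or from Adcy2 at 0.397. From Adcy1 the profile of Adcy5 differed more, by 0.704.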

How the data were processed

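Per the labels' protocols, RNA from dispersed pituitary cells was isolated with TRIzol, made into libraries with a NEBNext Ultra kit, paired-end sequenced on a NovaSeq and mapped with HISAT2 2.0.0. The submitters' processing notes name the build GRCm38, featureCounts 1.5.0-p3 and DESeq 1.8.3. For each of the 12 libraries the authors deposited a table of raw counts by gene. Which annotation release and strand setting were used, and how multi-mapping reads were treated, is not given in the sources used here. No 2 libraries held identical counts.

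Of 55421 gene IDs, 55154 matched a symbol and exon length in GENCODE M21, and unmatched IDs took no more than 0.0135% of the counts. Filtering with filterByExpr left 22630 genes. Quasi-likelihood F tests in edgeR 4.0.16 (R 4.3.3) compared group means in a joint fit of the 12 libraries after TMM scaling, and p-values were adjusted by Benjamini-Hochberg over all genes (threshold 0.05). SE was obtained as the size of the log2 fold change over the root of F. The median SE was 0.262 for genes of at least 1 CPM, and the common biological coefficient of variation was 0.445. The edgeR steps were tested on simulated counts, with changes put into the ctrl_AA14 libraries. At the adjusted threshold they recovered 17.9% of 2-fold, 71.6% of 4-fold and 90.9% of 8-fold changes. A 2-fold change that does not pass in edgeR is therefore not shown to be absent.

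CPM per kb divides by the union of a gene's exons. DESeq2 1.42.0, limma 3.58.1 (voom with quality weights), other size factors, no low-count filter, the compared groups only, a replicate block, the library state and each library left out were alternatives. All 9 members are reported, and DESeq2 gave no p for Adcy8 in any comparison. From each pathway list the 2 genes of smallest unadjusted p for AA14 in control mice are named, and the likeness search left out Gm-numbered and Rik genes. The members, lists and the Malat1 limit of 1000 CPM were chosen with earlier results of these data known, so they give no independent support.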

Additional observations from a re-analysis of the deposited data

How the results depend on the processing

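For AA14 in control mice, members called numbered 0 in the main edgeR analysis, 2 with DESeq2, 2 with limma-voom and 1 with the compared groups only, beside 1, 2299, 3409 and 2266 genes in all. The unadjusted count was 0 with library state as a term, where 2.02% of all genes were under 0.05. It was 3 over all libraries (23.8% of all genes) and 2 without the oligodendrocyte-rich libraries (10.4%). It was also 2 without ctrl_vehicle 3 (13.9%), ctrl_AA14 2 (16.8%) or ctrl_AA14 3 (13.6%). Upper quartile scaling moved the median of all genes in this comparison to 0.11 (log2) and turned the sign of no member. Sign changes were seen with limma-voom (Adcy6 -0.0423, Adcy8 0.84), with library state (Adcy1 0.90, Adcy3 0.19, Adcy6 -0.0361, Adcy7 -0.39, Adcy8 6.997) and without the 3 oligodendrocyte-rich libraries (Adcy2 0.0327, Adcy8 0.53). With 1 library left out, Adcy2 ran from -0.58 to 0.0004, Adcy4 from -0.24 to 0.39, Adcy6 from -0.046 to 0.22 and Adcy8 from -4.34 to 1.88. In cre mice Adcy9 was 0.10 without the oligodendrocyte-rich libraries. With 1 library left out, Adcy5 ran from -0.39 to 0.0378 and Adcy9 from -0.29 to 0.14. The unadjusted count then ran from 0 to 1 (1.49% to 6.19% of all genes). For the difference of the AA14 effects the unadjusted count was 1 with the replicate block (4.44% of all genes) and 0 with library state (2.16%). It was 1 without the oligodendrocyte-rich libraries (4.94%) and 0 to 2 with 1 library left out (3.51% to 17.2%). Adcy3 was -0.72 with library state. For cre under vehicle Adcy3 was 0.33 with limma-voom and 0.10 with library state. With 1 library left out Adcy3 ran from -0.585 to 0.30 and the unadjusted count from 0 to 1 (2.26% to 3.48% of all genes). For cre under AA14 the count was 2 with DESeq2 (10% of all genes), 2 with limma-voom (26%) and 2 without the oligodendrocyte-rich libraries (5.63%). With 1 library left out the count was 0 to 2 (2.62% to 18.8%). There Adcy6 was 0.0207 with limma-voom and 0.023 with library state, it ran from -0.12 to 0.0686 with 1 library left out, and Adcy3 was -0.62 with library state. Dividing by coding length put the family shares at 3.59% for Adcy1, 9.56% for Adcy2 and 1.89% for Adcy9, against 1.78%, 13.8% and 2.72% by exon length. The cause of these changes was not tested. The labels do not say whether replicate numbers mark pairs. Of 18 same-numbered pairs the correlations of deviations ran from -0.562 to 0.36 and 5 were over 0.1. Differently numbered pairs ran from -0.5 to 0.666, so these correlations cannot decide the question. The replicate block left members called at 0 and Adcy5 at -1.04 (edgeR adjusted p = 0.218) for AA14 in control mice. DESeq2 called 14 genes for AA14 in cre mice (edgeR 0), 26 for the difference of the AA14 effects (edgeR 1), 19 for cre under vehicle (edgeR 1) and 34 for cre under AA14 (edgeR 0), none of them a member. The lowest members held 0 to 881 counts per library for Adcy8 and 41 to 178 for Adcy4.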
